A study of Triticum aestivum with 12 samples.

Results

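The genes described here are those whose response to heat differed between anthers of the heat-sensitive wheat cultivar ‘Mv 17-09’ and the heat-tolerant ‘Ellvis’. For each gene, the heat effect of a cultivar is the log2 fold change of its treated over its control libraries, and the difference is the heat effect in ‘Mv 17-09’ minus that in ‘Ellvis’. A negative difference therefore means that heat moved the gene further down, or less far up, in ‘Mv 17-09’. A difference was called where edgeR's quasi-likelihood test gave a Benjamini-Hochberg adjusted p under 0.05 and its size was at least 1 on the log2 scale, which is 2-fold. It was called for 3675 of the 70527 genes tested (5.21%), out of 266760 gene models in the files. At the limit of the adjusted p, TraesCS5D03G1111200 was the last gene called, with a difference of -1.36, and TraesCS3A03G0247400 the first one not called, with -1.68 (adjusted p = 0.0501 by edgeR).

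Winter wheat plants were held at 35 °C for 24 h from the day before the onset of meiosis, and anthers of main spikes were taken at the end of the treatment, beside anthers of unstressed plants at the same stage. The 4 groups, treated ‘Mv 17-09’, control ‘Mv 17-09’, treated ‘Ellvis’ and control ‘Ellvis’, had 3 RNA-seq libraries each. The study's methods call the libraries biological replicates without naming the plants behind each, so p-values cover the spread among these libraries, which may be partly technical. Sensitive and tolerant wheat are each represented by 1 cultivar, so heat tolerance and any other trait of a cultivar cannot be told apart. Meiocytes, the tapetum around them and the outer wall layers were sequenced together, and in such bulk RNA fewer cells of a type and less RNA per cell cannot be told apart. Wheat carries A, B and D copies of most genes, and how reads shared by them were counted is not given in the sources used here, so the value of a single copy is less certain than that of its family.

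The depth was 9336312 to 9670186 counts in treated ‘Mv 17-09’, 15867579 to 20846135 in control ‘Mv 17-09’ and 13789268 to 17360285 in treated ‘Ellvis’. In ‘Ellvis’ controls it was 1831675 in replicate 1, and 17323438 and 14439086 in the others. Treated ‘Mv 17-09’ was thus shallower than all libraries but ‘Ellvis’ control replicate 1. It had at least 10 counts in 53847 to 54732 genes, against 60647 to 64627 in control ‘Mv 17-09’. The part of this depth in the differences was not tested. The biological coefficient of variation was 0.126 in treated and 0.0852 in control ‘Mv 17-09’, and 0.107 in treated and 0.409 in control ‘Ellvis’. In 36.3% of the genes tested, ‘Ellvis’ control replicate 1 lay at least 2-fold from the mean of the other 2 ‘Ellvis’ controls. Markers of cell types were set beside the label anther. Those of the tapetum all belong to the group of sporopollenin genes described below. Their sums and the results of that group thus rest on the same genes and are not separate evidence. Other genes of the study's tapetum list did not all go with them. Over that whole list, heat lowered 56 and raised 19 of 119 tested genes in ‘Mv 17-09’, at the same adjusted p and fold. Among them, 14 of 35 pollen coat genes rose and 1 fell. The sums thus describe the sporopollenin families, not the tapetum as a whole. The markers of meiocytes came from the core of the study's meiosis list. Of 31 listed markers of the tapetum, 29 passed the filter on low counts and were tested. Passing it requires counts, so the detection of tested markers is not a separate check. The 29 summed to 5230 to 6819 CPM (counts scaled to a library of 1000000) in treated and 21104 to 23799 CPM in control ‘Mv 17-09’. In treated ‘Ellvis’ the sum was 16347 to 19010 CPM. In ‘Ellvis’ controls this sum was 34535 CPM in replicate 1, against 16992 and 18232 CPM in the others. Of 43 listed markers of meiocytes, 38 passed the same filter. They summed to 202 to 222 CPM in treated and 203 to 234 CPM in control ‘Mv 17-09’. In ‘Ellvis’ their sum was 233 to 246 CPM in treated libraries, and 165, 293 and 289.8 CPM in controls. Replicate 1 of the ‘Ellvis’ controls thus stood high in the sum of tapetal and low in that of meiotic markers, while single families went both ways. ACOS5 had 12715 CPM in it against 4680 and 4923 CPM in the other controls, and CYP703A2 554 against 808 and 896 CPM. Among meiocyte markers, DMC1 had 11.3 against 13.9 and 17.5 CPM, and SDS 3.955 against 0.296 and 0.358 CPM. The counts of called differences by class and by gene group are given with and without this library. The part of these marker levels in the differences was not tested.

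Plant cells answer heat by making heat shock proteins, chaperones that keep damaged proteins soluble or refold them. The tapetum, the innermost layer of the anther wall, is known for its sensitivity to heat. In Arabidopsis it is built up by a chain of transcription factors, in which DYT1 acts on TDF1, TDF1 on AMS, AMS on MS188 and MS188 on MS1. Late members of the chain turn on the enzymes that make sporopollenin, the polymer of the outer pollen wall, and the transporters that export it. In the meiocytes, microtubules form the spindle that separates chromosomes, and actin filaments accompany it.

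The difference was negative for 2644 genes (3.75% of those tested) and positive for 1031 (1.46%). With ‘Ellvis’ control replicate 1 left out, it was called for 7090 of 73743 genes tested (9.61%), negative for 5259 (7.13%) and positive for 1831 (2.48%). Of the 3675 calls, 3544 were made again without this library, with the same sign. When each of the other 11 libraries was left out in turn, 1878 to 2346 genes were negative and 658 to 812 positive. Across all 12 such fits, 1947 differences (2.76%) were called every time, 1512 negative (2.14%) and 435 positive (0.617%). Negative differences therefore outnumbered positive ones in each of these fits.

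The heat effects within each cultivar, called at the same thresholds, separate the 3675 genes by which cultivar moved. In ‘Mv 17-09’ heat lowered 6.93% and raised 4.67% of the genes tested, and in ‘Ellvis’ it lowered 1.64% and raised 1.98%. The largest class fell in ‘Mv 17-09’ with no call in ‘Ellvis’. It held 1763 genes (2.5% of those tested), 47.97% of all differences called, with a median heat effect of -1.92 in ‘Mv 17-09’ and 0.04 in ‘Ellvis’ on the log2 scale. Of these genes, 1671 moved by less than 2-fold in ‘Ellvis’. A further 555 genes (0.787%) rose in ‘Mv 17-09’ alone, with medians of 1.61 and -0.09. In ‘Ellvis’ alone 255 genes (0.362%) rose, with a median heat effect of -0.43 in ‘Mv 17-09’ and 1.48 in ‘Ellvis’, and 107 genes (0.152%) fell, with medians of 0.25 and -1.42. Membership of a class rests on the thresholds in each cultivar, and the difference itself is what was tested.

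The cultivars moved in opposite directions for 116 genes. Of these, 108 (0.153%) fell in ‘Mv 17-09’ and rose in ‘Ellvis’, with median heat effects of -1.57 and 1.42, and 8 (0.0113%) rose in ‘Mv 17-09’ and fell in ‘Ellvis’, with medians of 1.73 and -1.29. Both cultivars moved the same way for 174 genes (0.247%): 102 fell in both and further in ‘Mv 17-09’, 55 rose in both and further in ‘Mv 17-09’, 12 rose in both and further in ‘Ellvis’, and 5 fell in both and further in ‘Ellvis’. For the remaining 705 genes (1%) the difference was called and neither heat effect was. Of these differences 404 were negative and 301 positive.

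**Figure D1:**
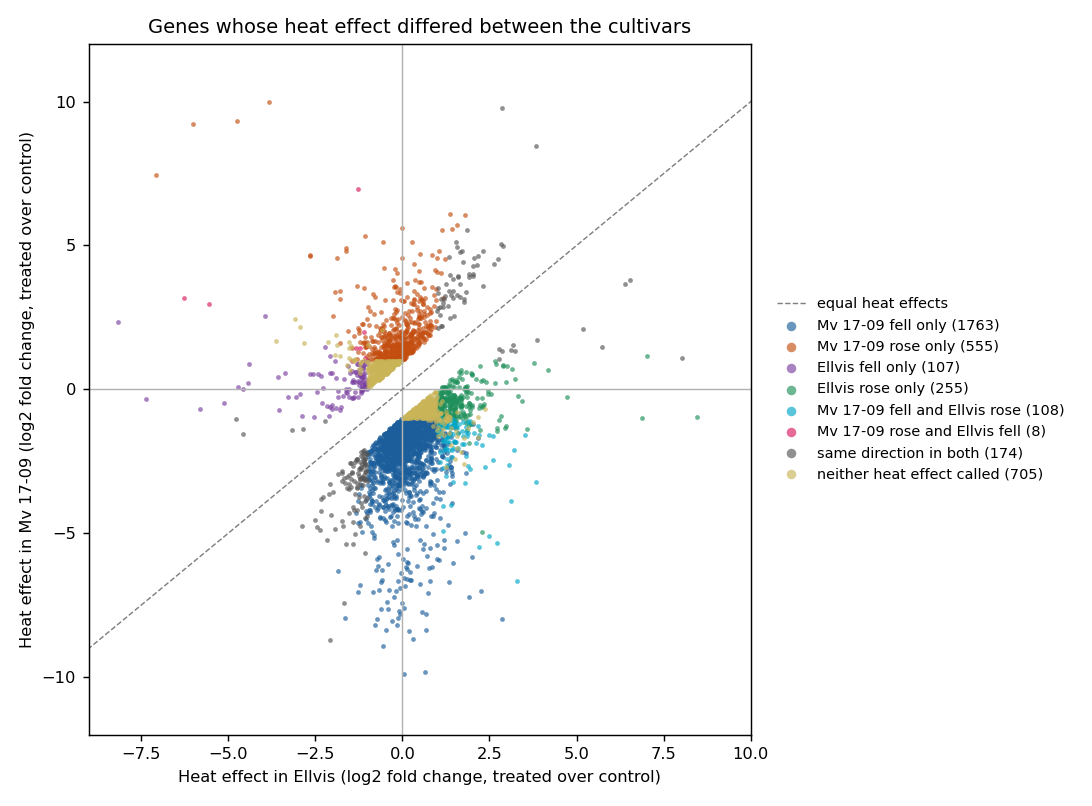
Heat effect in ‘Mv 17-09’ (vertical axis) against heat effect in ‘Ellvis’ (horizontal axis), both as log2 fold changes of treated over control, for the 3675 genes whose difference was called. Each point is 1 gene coloured by class, and the dashed line marks equal effects; the 1763 genes that fell in ‘Mv 17-09’ alone lie below 0 on the vertical axis, with a median of 0.04 on the horizontal one.

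Without ‘Ellvis’ control replicate 1 every class grew. Heat then lowered 8.35% and raised 6.15% of the 73743 genes in ‘Mv 17-09’, and lowered 2.17% and raised 4.29% in ‘Ellvis’. The genes that fell in ‘Mv 17-09’ alone numbered 3021 (4.1%) and those that rose there alone 900 (1.22%), while 747 (1.01%) rose and 234 (0.317%) fell in ‘Ellvis’ alone. Opposite directions were found for 312 genes (0.423%) that fell in ‘Mv 17-09’ and rose in ‘Ellvis’ and for 18 (0.0244%) of the reverse kind, the same direction for 268 (0.363%), and neither heat effect for 1590 (2.16%). Of the 1763 genes that fell in ‘Mv 17-09’ alone, 1607 stayed in that class and 101 passed to the class that also rose in ‘Ellvis’. The class was kept by 523 of 555 genes that rose in ‘Mv 17-09’ alone, 237 of 255 that rose in ‘Ellvis’ alone, 93 of 107 that fell in ‘Ellvis’ alone and 105 of 108 that moved down in ‘Mv 17-09’ and up in ‘Ellvis’. Leaving out 1 of the other 11 libraries gave 1284 to 1644, 375 to 461, 142 to 226, 64 to 116 and 65 to 96 genes in these 5 classes.

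**Figure D2:**
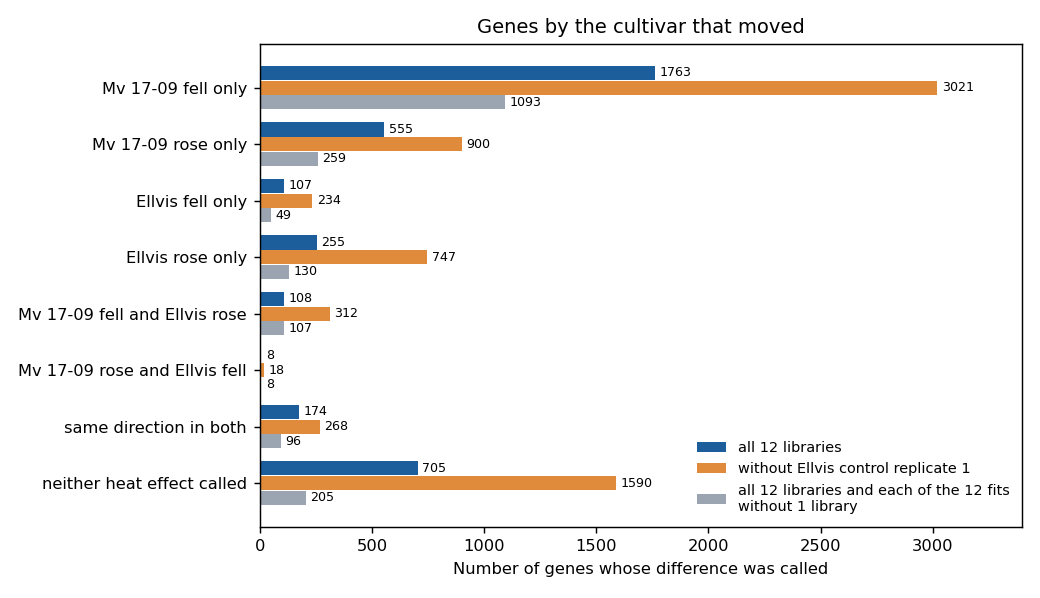
Number of genes in each class with all 12 libraries, without ‘Ellvis’ control replicate 1, and with all 12 libraries and in each of the 12 fits that leave out 1 library. The order of the bars shows that genes that fell in ‘Mv 17-09’ alone (1763, 3021 and 1093) were the most numerous class by each count.

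The genes with negative differences took 3.16%, 2.84% and 3.23% of all counts in treated and 9.41%, 9.73% and 9.90% in control ‘Mv 17-09’. Their share was 9.50%, 9.59% and 8.47% in treated ‘Ellvis’ and 10.9%, 8.33% and 8.45% in ‘Ellvis’ controls. Treated ‘Mv 17-09’ was thus the group that stood apart, and it shared no value with the other 3. Positive differences showed the reverse on a smaller scale, with 3.67%, 3.75% and 3.69% of counts in treated and 1.54%, 1.61% and 1.53% in control ‘Mv 17-09’, and 1.98% to 2.18% in treated and 2.20% to 2.30% in control ‘Ellvis’. These shares describe genes chosen for that pattern and are not tested. In 1643 of the 2644 genes with a negative difference, the group means of the cultivars were within 2-fold in controls and further apart under heat, and in 326 they were within 2-fold under heat only. For positive differences these counts were 423 and 229 of 1031.

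Some properties of the genes were set beside the contrast, and their levels come from the same 12 libraries. Among the 1064 genes with a mean of at least 100 CPM, 13.6% had a negative and 2.16% a positive difference, while under 1 CPM the shares were 1.27% and 0.440%. Of the 145 highly expressed genes with a negative difference, 124 fell in ‘Mv 17-09’ alone and 21 belonged to the sporopollenin pathway described below. Low counts give the test less to work with, and the part of depth in this trend was not tested. Calls were spread over the genome, at 3.72%, 3.59% and 3.94% negative and 1.39%, 1.36% and 1.62% positive in the A, B and D subgenomes. The share of genes called was 5.71% among high-confidence models, 3.25% among low-confidence models and 3.80% (3 of 79) among manually curated ones. In 92 genes with a called difference, at least 1 group had no count at all, and this was treated ‘Mv 17-09’ for 73 of them. These zeros are among the counts that the contrast used. Their share among all genes tested was not counted, so the 92 and 73 are description only.

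The high-confidence gene with the smallest p in each class gives the range of the patterns, and the sources used here give none of these 8 IDs a name. TraesCS5A03G0761400 fell in ‘Mv 17-09’ alone. It had 22.3, 23.6 and 35.2 CPM in treated and 982, 1258 and 1174 CPM in control ‘Mv 17-09’, against 2063, 1709 and 1541 CPM in treated and 2912, 1816 and 1580.3 CPM in control ‘Ellvis’. Treated ‘Mv 17-09’ lay below every other library, and the difference was -5.15 (standard error 0.36, adjusted p = 1.40e-06 by edgeR). TraesCS1A03G0831400 moved in opposite directions, with 24.3, 17.4 and 22.9 CPM in treated and 117, 119 and 118 CPM in control ‘Mv 17-09’, against 32.5, 36.2 and 36.2 CPM in treated and 2.26, 5.99 and 6.52 CPM in control ‘Ellvis’. Its groups did not overlap in either cultivar, and its difference was -5.06 (standard error 0.28, adjusted p = 1.79e-07 by edgeR). The cultivars were thus further apart in controls than under heat, with the order of the cultivars turned round.

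TraesCS5B03G1316200 rose in ‘Mv 17-09’ alone, to 11.8, 18.1 and 13.0 CPM in treated libraries, against 0.805, 1.31 and 0.847 CPM in controls. In ‘Ellvis’ it was high throughout, at 16.4, 17.3 and 17.6 CPM in treated and 22.0, 21.6 and 18.6 CPM in control libraries, and the difference was 4.08 (standard error 0.28, adjusted p = 1.29e-06 by edgeR). The cultivars were thus closer to each other under heat than in controls. TraesCS7B03G1257900 rose in ‘Mv 17-09’ and fell in ‘Ellvis’, with 42.4, 40.7 and 35.7 CPM in treated and 9.59, 10.6 and 9.38 CPM in control ‘Mv 17-09’, and 7.50, 6.88 and 8.48 CPM in treated and 17.5, 16.3 and 15.8 CPM in control ‘Ellvis’. Its difference was 3.10 (standard error 0.19, adjusted p = 4.51e-07 by edgeR). The other 4 genes had differences of -2.26 for TraesCS1A03G0142700, which rose in ‘Ellvis’ alone, 2.15 for TraesCS5A03G0162900, which fell in ‘Ellvis’ alone, -3.36 for TraesCS3A03G1131500, which fell in both cultivars, and 1.73 for TraesCS7D03G0977400, where neither heat effect was called. Without ‘Ellvis’ control replicate 1, TraesCS3A03G1131500 fell in ‘Mv 17-09’ alone and TraesCS7D03G0977400 fell in ‘Ellvis’ alone. Each of the 8 differences was called in all 12 fits that leave out 1 library.

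Among the 10 genes that the study also followed by qPCR, the difference was called for 2, both negative. Ta21.9HSP (TraesCS4A03G0602500, chromosome 4A, 533845280 to 533846358) codes for a small heat shock protein, which holds unfolding proteins until they can be refolded. Here and below, positions are those of the RefSeq gene on the IWGSC RefSeq v2.1 assembly, the build of the files. Its level was 0.521, 0.419 and 0.642 CPM in treated and 0.134, 0.210 and 0.195 CPM in control ‘Mv 17-09’, and 3.95, 3.75 and 3.58 CPM in treated and 0, 0.0593 and 0.0716 CPM in control ‘Ellvis’. All treated libraries of ‘Ellvis’ thus lay above all those of ‘Mv 17-09’, although the controls of ‘Ellvis’ were the lower ones, and the gene rose in both cultivars. In ‘Mv 17-09’ the rise was 1.49 and lay just inside the threshold (adjusted p = 0.0495 by edgeR). The difference was -4.25 (standard error 0.77, adjusted p = 0.00316 by edgeR). In ‘Ellvis’ the change rests on 190 counts in treated and 2 counts in control libraries, a ratio of 61.2 with an exact 95% interval of 16.7 to 509 that covers counting error only. The gene was low in all groups, so few counts carry this result.

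Ta70HSP (TraesCS3B03G0975400, chromosome 3B, 630720805 to 630723797), a member of the 70 kDa chaperones that refold proteins, was far more abundant and rose in both cultivars. It had 39.5, 35.2 and 32.9 CPM in treated and 9.66, 12.4 and 14.98 CPM in control ‘Mv 17-09’, and 48.6, 50.5 and 47.8 CPM in treated and 18.6, 19.7 and 20.1 CPM in control ‘Ellvis’. The difference was 0.22 (standard error 0.22, adjusted p = 0.649 by edgeR), so a cultivar difference in the heat effect was not called for this gene. TaGRAS (TraesCS3D03G0851800), a GRAS family gene annotated as RAD1-like, had 0.104, 0 and 0 CPM in treated and 0.805, 1.21 and 0.716 CPM in control ‘Mv 17-09’, and 0.954, 1.34 and 0.826 CPM in treated and 2.26, 0.474 and 0.358 CPM in control ‘Ellvis’. In ‘Mv 17-09’ these are 1 count under heat and 46 in controls, a ratio of 0.0376 (exact 95% interval 0.000932 to 0.220, counting error only), and the fitted difference was -5.19 (standard error 1.15, adjusted p = 0.0127 by edgeR). Both differences were called in all 12 fits that leave out 1 library. TaNIP (TraesCS6B03G0952900), an aquaporin gene, had the largest difference of the other genes, 4.09 (standard error 1.89, adjusted p = 0.245 by edgeR). Its value without ‘Ellvis’ control replicate 1 was 1.83, and it had 781 counts in treated and 2 in control ‘Mv 17-09’. For the remaining 7 qPCR genes the difference was between -1.15 and 0.76 and was not called.

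The study's lists of meiosis, spindle, actin and tapetum genes held 683 tested genes, and 53 of them fell in ‘Mv 17-09’ alone. Both the lists and the order below were known to differ between the cultivars from earlier results of these data, so the counts describe them and do not test them. Over all genes tested the median difference was -0.01. For comparison with the counts in the next paragraphs, 3.75% of all genes had a negative and 1.46% a positive difference by edgeR. Without ‘Ellvis’ control replicate 1 these shares were 7.13% and 2.48%. Among all 70527 genes tested, an unadjusted p under 0.05 (edgeR) was found for 8121 negative and 5758 positive differences. DESeq2 called 2272 negative and 1101 positive differences over all genes, and limma 5137 and 2310.

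The regulators of the tapetum mostly had negative differences. Of 26 tested genes, 18 had a negative and 2 a positive difference, with the same counts without ‘Ellvis’ control replicate 1, and 14 of the negative calls were made in all 12 fits that leave out 1 library. The median difference was -1.64. In the DYT1 and AMS family, 6 of 6 genes were negative, as were 3 of 3 genes of TDF1, 3 of 3 of MS188 and 2 of 3 of MS1. All 6 genes of the DYT1 and AMS family are annotated as TDR-like, after the rice tapetal factor TDR. TraesCS6A03G0158600 (chromosome 6A, 41861385 to 41864421) had 11.5, 9.33 and 8.78 CPM in treated and 36.7, 32.5 and 36.3 CPM in control ‘Mv 17-09’, and 61.1, 62.2 and 45.5 CPM in treated and 52.0, 38.2 and 40.5 CPM in control ‘Ellvis’. Treated ‘Mv 17-09’ lay below all other libraries, and the difference was -2.23 (standard error 0.24, adjusted p = 5.93e-05 by edgeR).

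TDF1 codes for a MYB factor, and its copy on chromosome 4B (TraesCS4B03G0536300, 412625225 to 412626934) had the smallest p of all listed genes that fell in ‘Mv 17-09’ alone. It had 4.59, 5.56 and 4.17 CPM in treated and 45.7, 52.5 and 44.1 CPM in control ‘Mv 17-09’, and 46.3, 50.8 and 32.8 CPM in treated and 52.0, 48.2 and 58.0 CPM in control ‘Ellvis’. The difference was -3.02 (standard error 0.26, adjusted p = 8.97e-06 by edgeR), and the copies on 4A and 4D had differences of -2.72 and -2.51. Replicate 1 of the ‘Ellvis’ controls lay among the others for TDF1, and the value without it was -3.02 as well. MS188, a MYB factor also known as MYB80, had differences of -1.74, -1.75 and -1.64 on chromosomes 2A, 2B and 2D. The call for the 2A copy was lost without treated ‘Mv 17-09’ replicate 2 (adjusted p = 0.0538 by edgeR).

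MS1, a PHD finger factor at the end of the chain, had the largest difference among the regulators. Its 5B copy (TraesCS5B03G0608200, chromosome 5B, 411993241 to 411995882) had 2.71, 1.68 and 2.35 CPM in treated and 27.2, 23.4 and 25.6 CPM in control ‘Mv 17-09’. In ‘Ellvis’ it had 55.4, 51.4 and 39.04 CPM in treated libraries, and 114, 21.8 and 23.6 CPM in controls. Replicate 1 of the ‘Ellvis’ controls lay far above its treated libraries and the other 2 controls lay below them. The difference was -3.57 (standard error 0.71, adjusted p = 0.00627 by edgeR) with all libraries and -4.59 (adjusted p = 2.40e-11 by edgeR) without this replicate. With all libraries the 5B and 5D copies fell in ‘Mv 17-09’ alone, and without the replicate both also rose in ‘Ellvis’. The 5D copy, with a difference of -2.45, was called in 2 of the 12 fits that leave out 1 library, those without ‘Ellvis’ control replicate 1 and without treated ‘Ellvis’ replicate 3, and the adjusted p reached 0.0882 in the others. The 5A copy was called without ‘Ellvis’ control replicate 1 only, at -3.76, against -2.48 (adjusted p = 0.0660 by edgeR) with all libraries.

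EAT1, a bHLH factor that in rice acts in tapetal cell death, showed another pattern. All 3 tested copies had a negative difference, but the 2A and 2B copies rose in ‘Ellvis’ alone, and for the 2D copy neither heat effect was called. Without ‘Ellvis’ control replicate 1 the rise in ‘Ellvis’ was called for the 2A copy and not for the 2B copy. TraesCS2B03G1175100 (chromosome 2B, 665651614 to 665654181) had 47.4, 35.3 and 38.5 CPM in treated and 62.1, 56.1 and 65.5 CPM in control ‘Mv 17-09’, and 51.0, 55.9 and 59.1 CPM in treated and 22.0, 27.2 and 28.4 CPM in control ‘Ellvis’. The groups did not overlap in either cultivar, and the ‘Ellvis’ controls were the lowest of the 4 groups. The difference was -1.66 (standard error 0.22, adjusted p = 0.000257 by edgeR), beside -1.44 for the 2A and -1.64 for the 2D copy, and all 3 were called in all 12 fits that leave out 1 library. The 2 positive differences among the regulators belonged to genes listed under MYB33 and annotated as MYB30 or MYB30-like, on chromosomes 6A and 6B, which rose in ‘Mv 17-09’ alone. They were 2.12 and 3.42, and the 6A call was kept in 7 and the 6B call in 2 of the 12 fits. The 2 fits that kept the 6B call were those without ‘Ellvis’ control replicate 1 and replicate 3, and the adjusted p by edgeR reached 0.0934 in the others. The 6A call was lost without treated ‘Mv 17-09’ replicate 1 or 2, control ‘Mv 17-09’ replicate 2, treated ‘Ellvis’ replicate 2 or ‘Ellvis’ control replicate 3, with an adjusted p of up to 0.0897 by edgeR.

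**Figure D3:**
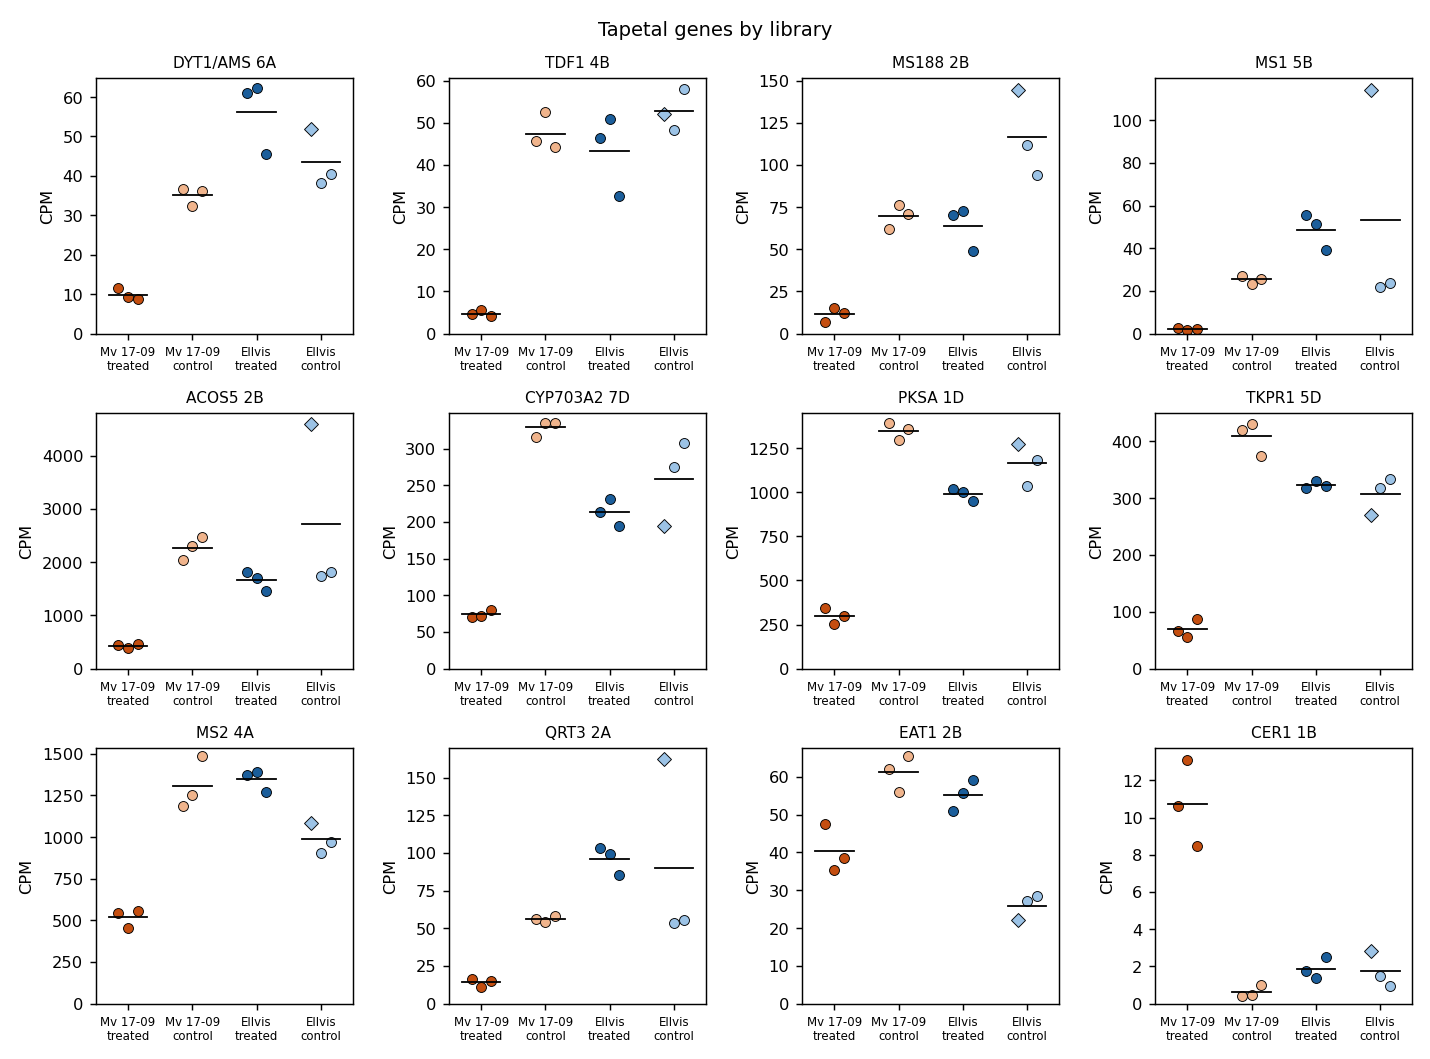
Expression in CPM (vertical axes, from 0) of 12 tapetal genes in treated and control ‘Mv 17-09’ and treated and control ‘Ellvis’, with 1 point per library and the group mean as a line. Diamonds mark ‘Ellvis’ control replicate 1, which is high for MS1, ACOS5 and QRT3; treated ‘Mv 17-09’ is lowest in 10 panels, EAT1 is lowest in ‘Ellvis’ controls, and CER1 is highest in treated ‘Mv 17-09’.

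Genes of sporopollenin synthesis and export also mostly had negative differences. Of 32 tested genes, 21 had a negative difference with all libraries and 29 without ‘Ellvis’ control replicate 1, 16 were negative in all 12 fits that leave out 1 library, and the median difference was -1.77. In ‘Mv 17-09’ 29 of the 32 fell, while no heat effect was called in ‘Ellvis’ for this group. A positive difference was found for 0 genes by edgeR, DESeq2 or limma, and for 1 gene at an unadjusted p under 0.05. The 3 genes that did not fall in ‘Mv 17-09’ are those of the exporter ABCG15, which summed to 65.6, 51.9 and 49.1 CPM in treated and 35.1, 38.6 and 39.5 CPM in control ‘Mv 17-09’, and to 49.7, 52.2 and 51.3 CPM in treated and 31.6, 43.03 and 40.9 CPM in control ‘Ellvis’. The other exporter of the list, ABCG26, was negative in 2 of 3 genes with all libraries and 3 of 3 without ‘Ellvis’ control replicate 1. Its 7A call was lost without treated ‘Mv 17-09’ replicate 2 or 3, control ‘Mv 17-09’ replicate 3 or ‘Ellvis’ control replicate 2 (adjusted p of up to 0.0600 by edgeR), and its 7D call was kept in 3 of the 12 fits, those without treated ‘Mv 17-09’ replicate 1, treated ‘Ellvis’ replicate 3 or ‘Ellvis’ control replicate 1 (adjusted p of up to 0.0869 by edgeR in the others).

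TKPR1 codes for a reductase that acts on the polyketide precursors of sporopollenin, and all 5 of its genes were negative in all 12 fits that leave out 1 library. TraesCS5D03G0638200 (chromosome 5D, 383867189 to 383870558) had 65.9, 54.8 and 87.9 CPM in treated and 421, 431 and 373 CPM in control ‘Mv 17-09’, and 318, 329 and 322 CPM in treated and 269.5, 317 and 334 CPM in control ‘Ellvis’. The difference was -2.63 (standard error 0.25, adjusted p = 2.10e-05 by edgeR), and the copies on 5A and 5B gave -2.60 and -2.59. In ‘Ellvis’ the heat effects of these 3 copies were 0.07, 0.00280 and 0.09, while all 3 fell in ‘Mv 17-09’. The polyketide synthase PKSA was negative in 3 of 3 genes, and the hydroxylase CYP703A2 and the acyl reductase MS2 likewise, each in all 12 fits that leave out 1 library. Summed over their copies, PKSA had 898, 624 and 738 CPM in treated and 3242, 3114 and 3213 CPM in control ‘Mv 17-09’, and 2529.9, 2495 and 2304 CPM in treated and 3285, 2459.5 and 2747 CPM in control ‘Ellvis’. All treated libraries of ‘Mv 17-09’ lay below all those of the other 3 groups.

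For some copies of the remaining enzymes, the value of ‘Ellvis’ control replicate 1 decided the call. The acyl-CoA synthetase ACOS5 summed to 1211, 1086 and 1265 CPM in treated and 5428, 6114 and 6581 CPM in control ‘Mv 17-09’, and to 4964, 4693 and 3939 CPM in treated ‘Ellvis’. Its sum was 12715 CPM in ‘Ellvis’ control replicate 1, against 4680 and 4923 CPM in the other controls. PKSB, another polyketide synthase, summed to 43.5, 34.1 and 56.5 CPM in treated and 452, 503 and 529 CPM in control ‘Mv 17-09’, to 776, 633 and 444 CPM in treated ‘Ellvis’, and to 4167, 476 and 506 CPM in its controls. The fall in ‘Mv 17-09’ was thus as clear for PKSB as for the other families. The difference was called for 0 of 3 PKSB genes by edgeR with all libraries and for 3 of 3 without that replicate, for 2 and 3 of 3 ACOS5 genes, for 1 and 3 of 3 CYP704B1 genes, and for 2 and 3 of 3 genes of the reductase TKPR2. Among them the PKSB copy on 5A, TraesCS5A03G0006300, had a difference of -2.54 (adjusted p = 0.0657 by edgeR) with and -4.09 (adjusted p = 1.91e-10 by edgeR) without it.

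QRT3, a polygalacturonase that in Arabidopsis frees microspores from the tetrad, was the called family among genes of tetrad release. Its 2A copy (TraesCS2A03G1012900, chromosome 2A, 681976004 to 681979047) had 16.6, 11.3 and 15.2 CPM in treated and 56.2, 54.1 and 58.2 CPM in control ‘Mv 17-09’, and 103, 99.3 and 85.4 CPM in treated and 162, 53.3 and 55.2 CPM in control ‘Ellvis’. The difference was -2.13 (standard error 0.45, adjusted p = 0.00992 by edgeR), and the 2B and 2D copies, at -1.67 and -1.20, were called only without ‘Ellvis’ control replicate 1, at -2.52 and -2.35. UPEX1, a galactosyltransferase of the primexine, was called in 0 of 5 genes by edgeR with all libraries (2 at an unadjusted p under 0.05, 0 by DESeq2 and 2 by limma) and in 2 without that replicate.

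The pollen coat genes, which make waxes and other lipids of the grain surface, went with heat in the other direction. Of 35 tested, 14 rose in ‘Mv 17-09’ and 9 in ‘Ellvis’, and the difference was positive for 2 and negative for 1 with all libraries, and positive for 3 and negative for 2 without ‘Ellvis’ control replicate 1. The median difference was -0.00463 with and -0.21 without that library. The positive differences with all libraries belonged to CER1, an alkane-forming enzyme, and both were called in all 12 fits that leave out 1 library. TraesCS1B03G0495300 (chromosome 1B, 304458210 to 304474380) had 10.6, 13.1 and 8.46 CPM in treated and 0.402, 0.472 and 0.977 CPM in control ‘Mv 17-09’, and 1.77, 1.40 and 2.48 CPM in treated and 2.82, 1.48 and 0.931 CPM in control ‘Ellvis’. The difference was 3.63 (standard error 0.53, adjusted p = 0.000587 by edgeR), and TraesCS1A03G0405100 and TraesCS1A03G0405200, listed beside it on 1A, had differences of 1.26 and 0.54 that were not called. The more abundant CER1 gene on 6A, TraesCS6A03G0623300, had 124, 139 and 106 CPM in treated and 45.7, 46.4 and 46.0 CPM in control ‘Mv 17-09’, and 51.2, 41.2 and 55.6 CPM in treated and 37.3, 47.2 and 47.6 CPM in control ‘Ellvis’. Its difference was 1.28 (standard error 0.23, adjusted p = 0.00283 by edgeR). The negative call was a KCS gene on 4B, at -1.68, which was kept in 5 of the 12 fits, those without treated ‘Mv 17-09’ replicate 3, control ‘Mv 17-09’ replicate 1, treated ‘Ellvis’ replicate 2 or 3 or ‘Ellvis’ control replicate 1 (adjusted p of up to 0.0781 by edgeR in the others).

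**Figure D4:**
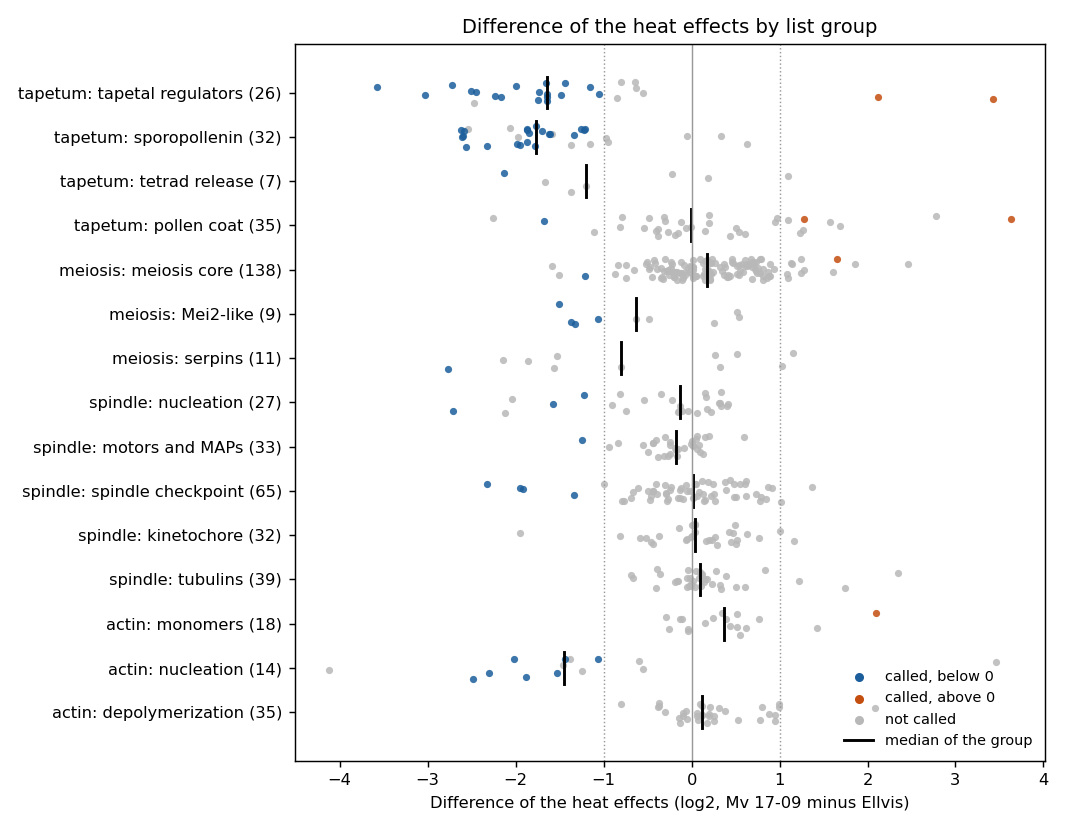
Difference of the heat effects (horizontal axis, log2, ‘Mv 17-09’ minus ‘Ellvis’) of each tested gene in 15 groups of the study's lists, with called genes in colour, group medians as bars and the number of genes in brackets; vertical scatter within a row has no meaning. The medians of the tapetal regulators (-1.64), sporopollenin (-1.77), tetrad release (-1.20) and actin nucleation (-1.45) lie beyond -1, while meiosis core, kinetochore and tubulin genes lie around 0.

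Few differences were called among genes of meiotic recombination and chromosome pairing. In the core of the meiosis list, 51 of 138 tested genes had a difference below 0, against 35936 of 70527 over all genes. At an unadjusted p under 0.05 (edgeR), 3 of the 138 were negative and 21 positive. The difference was called negative for 1 and positive for 1 with all libraries, and for 2 and 2 without ‘Ellvis’ control replicate 1, beside a median of 0.17. The positive one was the 5A copy of DMC1 (TraesCS5A03G0375300, chromosome 5A, 300128871 to 300133061), the recombinase that works in meiosis only. It had 1.56, 3.46 and 2.78 CPM in treated and 0.671, 0.629 and 0.781 CPM in control ‘Mv 17-09’, and 2.59, 2.13 and 1.93 CPM in treated and 2.26, 1.42 and 2.22 CPM in control ‘Ellvis’. The difference was 1.65 (standard error 0.47, adjusted p = 0.0491 by edgeR), close to the threshold, and it was kept in 3 of the 12 fits, those without treated ‘Mv 17-09’ replicate 1 or ‘Ellvis’ control replicate 1 or 2, with an adjusted p of up to 0.176 by edgeR in the others. The 5B and 5D copies had differences of -0.17 and 0.21. Meiocyte markers as a whole had like levels in treated and control ‘Mv 17-09’, as given above.

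Mei2-like genes, which code for RNA-binding proteins that in Arabidopsis act in meiosis, were negative in 4 of 9 genes with all libraries and 3 of 9 without ‘Ellvis’ control replicate 1. The 1A copy of MEI2-like 3 (TraesCS1A03G0016300, chromosome 1A, 4379076 to 4386587) had 113, 111 and 113 CPM in treated and 247, 248 and 228 CPM in control ‘Mv 17-09’, and 141, 155 and 151 CPM in treated and 62.7, 130.45 and 139.7 CPM in control ‘Ellvis’. The difference was -1.50 (standard error 0.30, adjusted p = 0.00714 by edgeR), and the 1D copy, TraesCS1D03G0008200, gave -1.37 (standard error 0.23, adjusted p = 0.00169 by edgeR). Both fell in ‘Mv 17-09’ alone and were called in all 12 fits that leave out 1 library. The 1B copy, TraesCS1B03G0015900, stood out by its level, with 6.67, 7.76 and 8.24 CPM in treated and 10.8, 11.5 and 12.6 CPM in control ‘Mv 17-09’, against 211, 233 and 218 CPM in treated and 76.3, 156 and 166 CPM in control ‘Ellvis’. Its difference of -1.33 (adjusted p = 0.0224 by edgeR) was kept in 4 of the 12 fits, those without control ‘Mv 17-09’ replicate 1 or 1 of the 3 ‘Ellvis’ controls, with an adjusted p of up to 0.0809 by edgeR in the others.

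Serpins, which block proteases, and of which AtSRP2 and AtSRP3 act in Arabidopsis under DNA damage, were negative in 1 of 11 tested genes with all libraries and in 4 without ‘Ellvis’ control replicate 1. The gene called in both is a putative serpin-Z8 on 5D (TraesCS5D03G1024700, chromosome 5D, 509459827 to 509461476). It had 1.04, 0.315 and 0.963 CPM in treated and 1.27, 1.57 and 1.30 CPM in control ‘Mv 17-09’, and 2.73, 3.92 and 2.97 CPM in treated and 1.13, 0.770 and 0.860 CPM in control ‘Ellvis’. Treated libraries lay above controls in ‘Ellvis’ and below them in ‘Mv 17-09’, and the heat effect was called in ‘Ellvis’ alone. The difference was -2.77 (standard error 0.51, adjusted p = 0.00365 by edgeR).

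Among the spindle genes, the difference was negative for 9 and positive for 1 of 341 tested, and for 10 and 5 without ‘Ellvis’ control replicate 1, with a median of -0.00685. Cdc20, the activator of the anaphase-promoting complex and the target of the spindle assembly checkpoint, was the family with most calls: 4 of 12 genes were negative, each in all 12 fits that leave out 1 library. Its 2D copy (TraesCS2D03G0984000, chromosome 2D, 550608542 to 550611286) had 12.4, 11.3 and 11.9 CPM in treated and 41.2, 38.6 and 37.4 CPM in control ‘Mv 17-09’, and 38.97, 44.4 and 39.8 CPM in treated and 10.2, 31.1 and 32.3 CPM in control ‘Ellvis’. The difference was -2.33 (standard error 0.33, adjusted p = 0.000484 by edgeR), with a value of -2.10 without ‘Ellvis’ control replicate 1, where this gene was low. The 2A copy gave -1.91, and the 2B copy, TraesCS2B03G1168300, gave -0.06 and was not called. Of the Cdc20 genes on group 5, TraesCS5B03G0495400 fell in both cultivars and further in ‘Mv 17-09’. Its levels were 0.625, 1.05 and 0.749 CPM in treated and 8.38, 8.66 and 6.51 CPM in control ‘Mv 17-09’, and 3.13, 2.91 and 3.30 CPM in treated and 5.08, 8.18 and 8.17 CPM in control ‘Ellvis’, with a difference of -1.96 (standard error 0.33, adjusted p = 0.00205 by edgeR). No other family of the 65 checkpoint genes had a call by edgeR with all libraries, while 1 gene of the anaphase-promoting complex subunits was positive by limma, and by edgeR without ‘Ellvis’ control replicate 1.

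Mozart1, a small protein that anchors γ-tubulin where microtubules start, was negative in 3 of 3 genes, and these were the calls by edgeR among the 27 genes of microtubule nucleation, of which 4 were called without ‘Ellvis’ control replicate 1. TraesCS5A03G1140800 (chromosome 5A, 658828981 to 658831763) had 2.19, 1.68 and 2.35 CPM in treated and 5.36, 4.62 and 5.27 CPM in control ‘Mv 17-09’, and 6.06, 5.48 and 5.40 CPM in treated and 2.82, 5.22 and 4.44 CPM in control ‘Ellvis’. The difference was -1.58 (standard error 0.28, adjusted p = 0.00276 by edgeR), and it was called in all 12 fits. The copy on 5B, TraesCS5B03G1212900, had the largest difference, -2.72 (standard error 0.69, adjusted p = 0.0280 by edgeR), and was kept in 5 of the 12 fits, those without treated ‘Mv 17-09’ replicate 3, control ‘Mv 17-09’ replicate 2, treated ‘Ellvis’ replicate 3 or ‘Ellvis’ control replicate 1 or 3. The gene on 1D, TraesCS1D03G0595700, gave -1.23 and was kept in 5 too, those without treated ‘Mv 17-09’ replicate 2, control ‘Mv 17-09’ replicate 1, treated ‘Ellvis’ replicate 3 or ‘Ellvis’ control replicate 1 or 3. In the other fits the adjusted p by edgeR reached 0.0867 for the 5B and 0.0747 for the 1D gene. Summed over the family, treated ‘Mv 17-09’ had 4.38, 5.98 and 5.24 CPM and its controls 13.5, 13.4 and 14.8 CPM, and ‘Ellvis’ had 15.3, 15.1 and 13.0 CPM in treated and 10.7, 13.7 and 14.3 CPM in control libraries.

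MAP65 proteins bundle antiparallel microtubules in the middle of the spindle and the phragmoplast. TraesCS1A03G0915600 (chromosome 1A, 553201195 to 553205360) fell in both cultivars and further in ‘Mv 17-09’, with 3.65, 3.04 and 3.10 CPM in treated and 21.93, 22.6 and 17.8 CPM in control ‘Mv 17-09’, and 8.24, 8.06 and 9.42 CPM in treated and 19.2, 23.6 and 24.4 CPM in control ‘Ellvis’. The difference was -1.24 (standard error 0.22, adjusted p = 0.00304 by edgeR), and its copies on 1B and 1D had -0.84 and -0.25, which were not called. Fidgetin, an ATPase that severs microtubules, gave the positive call. Its 5B gene (TraesCS5B03G0284000, chromosome 5B, 160645018 to 160659164) had 9.49, 8.81 and 8.99 CPM in treated and 7.71, 8.87 and 10.4 CPM in control ‘Mv 17-09’, and 2.38, 2.63 and 2.26 CPM in treated and 4.52, 5.69 and 5.52 CPM in control ‘Ellvis’. It fell in ‘Ellvis’ alone, with a difference of 1.19 (standard error 0.23, adjusted p = 0.00547 by edgeR), while the 5A and 5D copies, TraesCS5A03G0292900 and TraesCS5D03G0309300, gave 0.08 and 0.07. A microspherule gene on 5B (TraesCS5B03G1119000), at -1.55, was kept in 3 of the 12 fits, those without treated ‘Mv 17-09’ replicate 3 or ‘Ellvis’ control replicate 1 or 3 (adjusted p of up to 0.116 by edgeR in the others). Tubulins, kinetochore genes, kinases and phosphatases and the chromosome group, 173 genes in all, had 0 calls by edgeR or DESeq2 with all libraries, 3 by limma, and 25 where the unadjusted p was under 0.05, and edgeR called 3 without ‘Ellvis’ control replicate 1.

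Among the actin genes, formins, which start and lengthen actin filaments, held 7 of the 8 calls. Of 14 tested, 7 had a negative difference with all libraries and 10 without ‘Ellvis’ control replicate 1, against 0 and 1 of 48 genes for depolymerization, crosslinking and monomer binding by edgeR. With all libraries these 48 genes had 0 calls by DESeq2, 2 by limma and 8 with an unadjusted p under 0.05. The median difference of the formins was -1.45, and 2 of the 7 calls were made in all 12 fits that leave out 1 library. One of these is a formin-like 20 gene on 5D (TraesCS5D03G0745900, chromosome 5D, 425643243 to 425644961), with 0.521, 2.31 and 1.93 CPM in treated and 6.77, 11.3 and 8.47 CPM in control ‘Mv 17-09’, and 25.9, 24.9 and 15.6 CPM in treated and 43.5, 16.9 and 17.4 CPM in control ‘Ellvis’. Its difference was -2.49 (standard error 0.57, adjusted p = 0.0149 by edgeR). The other is a formin-like 18 gene on 6B (TraesCS6B03G0241500), with 1.88, 2.41 and 2.14 CPM in treated and 8.45, 10.02 and 8.99 CPM in control ‘Mv 17-09’, and 6.27, 7.05 and 7.54 CPM in treated and 11.9, 10.7 and 9.31 CPM in control ‘Ellvis’. Its difference was -1.53 (standard error 0.24, adjusted p = 0.00103 by edgeR).

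For other formins the call changed with the libraries used. TraesCS5A03G0991800, annotated as inverted formin-2-like on 5A, had 0, 0.210 and 0.428 CPM in treated and 11.8, 15.7 and 15.7 CPM in control ‘Mv 17-09’, and 29.2, 23.34 and 15.5 CPM in treated ‘Ellvis’, with 260.5 CPM in ‘Ellvis’ control replicate 1 beside 15.1 and 16.8 CPM in the others. Its difference was -4.13 (adjusted p = 0.239 by edgeR) with and -6.55 (adjusted p = 5.71e-09 by edgeR) without that replicate. TraesCS5B03G0822900, annotated as formin-like 3 on 5B, gave -2.31 (adjusted p = 0.0416 by edgeR) and was kept in 4 of the 12 fits, those without treated ‘Mv 17-09’ replicate 1 or 3, treated ‘Ellvis’ replicate 3 or ‘Ellvis’ control replicate 1, with an adjusted p of up to 0.118 in the others. In a formin-like 3 gene on 2A, TraesCS2A03G0453100, treated libraries lay above controls in both cultivars, and the rise was called in ‘Ellvis’ alone. The gene had 49.3, 49.8 and 28.7 CPM in treated and 28.4, 14.7 and 27.5 CPM in control ‘Mv 17-09’, and 36.05, 23.2 and 49.1 CPM in treated and 5.65, 5.81 and 3.73 CPM in control ‘Ellvis’. Its difference of -2.02 (adjusted p = 0.0136 by edgeR) was lost without ‘Ellvis’ control replicate 3 (adjusted p = 0.0557 by edgeR). Actin itself gave 1 call of 18, an actin-7-like gene on 3B (TraesCS3B03G1017700, chromosome 3B, 662060304 to 662063022) that fell in ‘Ellvis’ alone, with 3.54, 2.94 and 3.21 CPM in treated and 1.54, 1.78 and 1.69 CPM in control ‘Mv 17-09’, and 1.16, 1.06 and 1.82 CPM in treated and 2.82, 3.38 and 2.72 CPM in control ‘Ellvis’. Its groups did not overlap in either cultivar, and the difference was 2.1 (standard error 0.37, adjusted p = 0.00241 by edgeR).

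**Figure D5:**
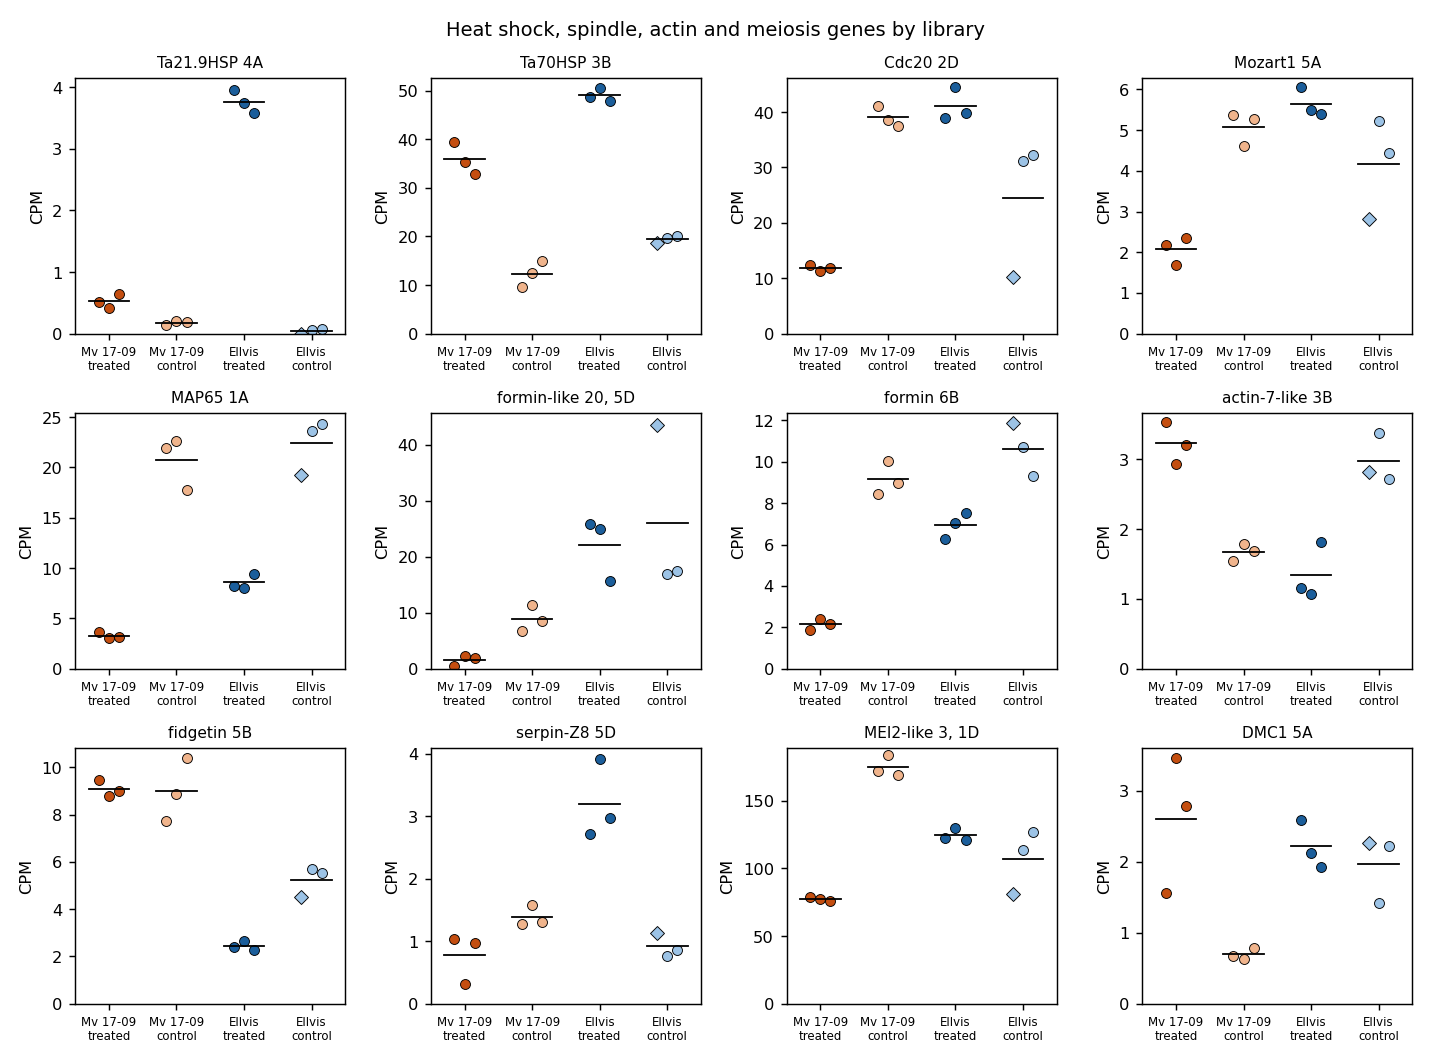
Expression in CPM (vertical axes, from 0) of 12 heat shock, spindle, actin and meiosis genes in treated and control ‘Mv 17-09’ and treated and control ‘Ellvis’, with 1 point per library and the group mean as a line. Diamonds mark ‘Ellvis’ control replicate 1; Ta21.9HSP and serpin-Z8 are highest in treated ‘Ellvis’ (3.58 to 3.95 and 2.73 to 3.92 CPM), fidgetin is lowest there, and Cdc20, Mozart1, MAP65 and the formins are lowest in treated ‘Mv 17-09’, beside 1 low ‘Ellvis’ control for Cdc20.

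Among the manually curated genes, 3 of 79 tested had a called difference, and they are named after their values were seen. TaCBFIVd-26.1, of the CBF family of cold-response regulators, averaged 0.140 CPM in treated and 6.75 CPM in control ‘Mv 17-09’, and 1.06 CPM in treated and 1.40 CPM in control ‘Ellvis’. The ‘Ellvis’ control mean holds 3.39 CPM in replicate 1, against a mean of 0.399 CPM in replicates 2 and 3. The fitted heat effect in ‘Ellvis’ was 0.80 and was not called (adjusted p = 0.43 by edgeR). TaCBFIVd-26.1 fell in ‘Mv 17-09’ alone, with a difference of -6.30 (standard error 0.81, adjusted p = 0.000227 by edgeR), and -6.92 without ‘Ellvis’ control replicate 1. This difference was called in all 12 fits that leave out 1 library. Of the NLR genes, a class of immune receptors, BST_chr1A_nlr_79 rose in ‘Mv 17-09’ alone, with a difference of 1.34 (adjusted p = 0.00544 by edgeR), and BST_chr5D_nlr_98 had a difference of 1.09 with neither heat effect called. The call for the NLR gene on 5D was kept in 5 of the 12 fits, those without treated ‘Mv 17-09’ replicate 3, control ‘Mv 17-09’ replicate 1, treated ‘Ellvis’ replicate 2 or ‘Ellvis’ control replicate 1 or 2, with an adjusted p of up to 0.11 by edgeR in the others.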

How the data were processed

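Whole anthers gave 12 rRNA-depleted, directional RNA-seq libraries. Per the study's methods, the authors trimmed the reads and mapped them in CLC Genomics Workbench, to the wheat assembly IWGSC RefSeq v2.1, and the submitters' processing notes name FastQC 0.11.8. The deposited files hold raw total counts per gene model, neither normalized nor pooled. For the strand setting and for reads shared by several copies, the rule of counting is not given in the sources used here.

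Counts were tested in R 4.3.3 with edgeR 4.0.16 (TMM factors, quasi-likelihood test, 1 fit of 4 groups, no covariate). The filter was filterByExpr, set to at least 10 counts per library and 15 in total. Calls needed a Benjamini-Hochberg adjusted p under 0.05 over all genes tested and a change of at least 1 on the log2 scale. Standard errors are the log2 value divided by the root of the F statistic and are approximate. CPM are counts per 1000000 of the TMM-scaled library total, not corrected for gene length, and levels are compared within a gene only. Depth was 1831675 to 20846135 counts per library, and intervals on count ratios are exact and cover counting error only.

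Members, lists and order were chosen with earlier results of these data known. Gene lists and annotation names come from the study's supplementary lists, and RefSeq coordinates were joined by gene symbol for 823 of 894 listed genes. Named were the 10 qPCR genes, in each class the 2 listed genes and the 1 high-confidence gene with the smallest p among those called with and without ‘Ellvis’ control replicate 1, the largest called difference in each functional group, and the listed copies of those genes. Further listed and curated genes were added after their values were seen: further copies of TDF1, MS188, PKSB and ABCG26, genes listed under DYT1, AMS, MYB33 and KCS, the formins on 2A and 6B, Mozart1 on 1D, and 3 curated genes. The gene behind 1 call in the meiosis list is not reported here. A list of heat shock genes was not made, because the reference used here does not pair gene IDs with product names.

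Alternatives were RLE size factors, library totals alone, no filter, DESeq2 1.42.0, limma 3.58.1 (voom with sample weights), the thresholds of the study applied to edgeR and DESeq2 in place of its software, a replicate block and leaving out each library. The fit was tested on simulated data.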

Additional observations from a re-analysis of the deposited data

Results flagged for a closer look

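The rule for naming genes gave 62 genes, and the heat effects of 38 of them differed between the cultivars by a test of the difference itself (edgeR, adjusted over all genes tested). The differences below are log2 values, ‘Mv 17-09’ minus ‘Ellvis’. Of the genes that fell in ‘Mv 17-09’ alone, TraesCS1A03G0016300 (MEI2-like) had -1.50, TraesCS1D03G0008200 (MEI2-like) had -1.37, TraesCS2A03G1012900 (QRT3) had -2.13, TraesCS2A03G1044300 (Cdc20) had -1.91, TraesCS2D03G0984000 (Cdc20) had -2.33 and TraesCS3D03G0851800 (TaGRAS) had -5.19. In the same class, TraesCS4B03G0536300 (TDF1) had -3.02, TraesCS5A03G0669000 (TKPR1) had -2.60, TraesCS5A03G0761400 had -5.15, TraesCS5A03G1140800 (Mozart1) had -1.58, TraesCS5B03G0608200 (MS1) had -3.57 and TraesCS5B03G0708100 (TKPR1) had -2.59. In the same class, TraesCS5B03G0822900 (Formin) had -2.31, TraesCS5B03G1119000 (Microspherule) had -1.55, TraesCS5B03G1212900 (Mozart1) had -2.72, TraesCS5D03G0557000 (MS1) had -2.45, TraesCS5D03G0638200 (TKPR1) had -2.63 and TraesCS5D03G0745900 (Formin) had -2.49. Of those that rose in ‘Mv 17-09’ alone, TraesCS1B03G0495300 (CER1) had 3.63, TraesCS5A03G0375300 (DMC1) had 1.65, TraesCS5B03G1316200 had 4.08 and TraesCS6A03G0623300 (CER1) had 1.28. Among genes that fell in ‘Ellvis’ alone, TraesCS3B03G1017700 (actin) had 2.1, TraesCS5A03G0162900 had 2.15 and TraesCS5B03G0284000 (Fidgetin) had 1.19. Among genes that rose in ‘Ellvis’ alone, TraesCS1A03G0142700 had -2.26, TraesCS2A03G1050200 (EAT1) had -1.44, TraesCS2B03G1175100 (EAT1) had -1.66 and TraesCS5D03G1024700 (serpin) had -2.77. With a fall in ‘Mv 17-09’ and a rise in ‘Ellvis’, TraesCS1A03G0831400 had -5.06. With a rise in ‘Mv 17-09’ and a fall in ‘Ellvis’, TraesCS7B03G1257900 had 3.10. Where both cultivars moved the same way, TraesCS1A03G0915600 (MAP65) had -1.24, TraesCS3A03G1131500 had -3.36, TraesCS4A03G0602500 (Ta21.9HSP) had -4.25 and TraesCS5B03G0495400 (Cdc20) had -1.96. Where neither heat effect was called, TraesCS1B03G0015900 (MEI2-like) had -1.33, TraesCS2D03G0991400 (EAT1) had -1.64 and TraesCS7D03G0977400 had 1.73. All but 6 of these differences were called in each of the 12 fits that leave out 1 library. The exceptions were TraesCS1B03G0015900, kept in 4, TraesCS5A03G0375300, kept in 3, TraesCS5B03G0822900, kept in 4, TraesCS5B03G1119000, kept in 3, TraesCS5B03G1212900, kept in 5 and TraesCS5D03G0557000, kept in 2. Without ‘Ellvis’ control replicate 1 the class of 5 of these genes changed: TraesCS5B03G0608200 and TraesCS5D03G0557000 (MS1) also rose in ‘Ellvis’, neither heat effect was called for TraesCS2B03G1175100 (EAT1), TraesCS3A03G1131500 fell in ‘Mv 17-09’ alone, and TraesCS7D03G0977400 fell in ‘Ellvis’ alone.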

How the results depend on the processing

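Negative differences outnumbered positive ones under every alternative run. RLE size factors gave 2519 negative and 1082 positive differences, library totals alone 2586 and 1002, and DESeq2 2272 and 1101, and these counts and those of the classes stayed within 1.5 times the ones reported. Testing every gene with a count gave 4110 negative differences, 2668 falls in ‘Mv 17-09’ alone, 237 falls in ‘Ellvis’ alone, 384 rises in ‘Ellvis’ alone, 167 falls in ‘Mv 17-09’ with rises in ‘Ellvis’, 63 rises in ‘Mv 17-09’ with falls in ‘Ellvis’ and 273 genes moving the same way. Limma with sample weights gave 5137 negative differences, 2310 positive differences, 2940 falls in ‘Mv 17-09’ alone, 1177 rises in ‘Mv 17-09’ alone, 273 falls in ‘Ellvis’ alone, 743 rises in ‘Ellvis’ alone, 288 falls in ‘Mv 17-09’ with rises in ‘Ellvis’, 30 rises in ‘Mv 17-09’ with falls in ‘Ellvis’ and 1743 genes with neither heat effect called. With the strict thresholds of the study, an adjusted p under 1e-06 and a 2-fold change, applied here to edgeR and DESeq2 in place of its own software, there were 487 negative differences, 105 positive differences, 405 falls in ‘Mv 17-09’ alone, 77 rises in ‘Mv 17-09’ alone, 6 falls in ‘Ellvis’ alone, 18 rises in ‘Ellvis’ alone, 13 falls in ‘Mv 17-09’ with rises in ‘Ellvis’, 1 rise in ‘Mv 17-09’ with a fall in ‘Ellvis’, 7 genes moving the same way and 65 genes with neither heat effect called. Stricter thresholds make these counts smaller by construction, and for the other settings the cause was not tested. Leaving out 1 library at a time gave 1878 to 5259 negative differences, 658 to 1831 positive differences, 1284 to 3021 falls in ‘Mv 17-09’ alone, 375 to 900 rises in ‘Mv 17-09’ alone, 64 to 234 falls in ‘Ellvis’ alone, 142 to 747 rises in ‘Ellvis’ alone, 65 to 312 falls in ‘Mv 17-09’ with rises in ‘Ellvis’, 4 to 18 rises in ‘Mv 17-09’ with falls in ‘Ellvis’, 97 to 268 genes moving the same way and 431 to 1590 genes with neither heat effect called. Each highest count came without ‘Ellvis’ control replicate 1. The counts that moved by over 1.5 times with another library left out, given for that library, were positive differences (683 for ‘Mv 17-09’ treated replicate 2, 658 for ‘Mv 17-09’ control replicate 2, 682 for ‘Ellvis’ treated replicate 1 and 681 for ‘Ellvis’ treated replicate 2), genes with neither heat effect called (437 for ‘Mv 17-09’ treated replicate 2 and 431 for ‘Mv 17-09’ control replicate 2), falls in ‘Ellvis’ alone (71 for ‘Mv 17-09’ control replicate 1, 68 for ‘Mv 17-09’ control replicate 2, 69 for ‘Mv 17-09’ control replicate 3, 64 for ‘Ellvis’ treated replicate 1, 68 for ‘Ellvis’ treated replicate 2 and 67 for ‘Ellvis’ treated replicate 3), genes moving the same way (111 for ‘Mv 17-09’ control replicate 2, 108 for ‘Ellvis’ treated replicate 3, 112 for ‘Ellvis’ control replicate 2 and 97 for ‘Ellvis’ control replicate 3), rises in ‘Mv 17-09’ with falls in ‘Ellvis’ (4 for ‘Ellvis’ treated replicate 2, 5 for ‘Ellvis’ treated replicate 3 and 13 for ‘Ellvis’ control replicate 2), rises in ‘Ellvis’ alone (151 for ‘Ellvis’ control replicate 2 and 142 for ‘Ellvis’ control replicate 3) and falls in ‘Mv 17-09’ with rises in ‘Ellvis’ (65 for ‘Ellvis’ control replicate 2 and 66 for ‘Ellvis’ control replicate 3).

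Over all 4 groups the replicate numbers were not found to pair the libraries: 3 of 18 correlations of same-numbered libraries exceeded 0.1, as did 7 of 36 with different numbers. The 3 were those of treated with control ‘Ellvis’ (0.33, 0.14 and 0.18), while those of treated with control ‘Mv 17-09’ were 0.077, 0.0956 and 0.013. Treated ‘Ellvis’ replicate 3 correlated more with control replicate 2 (0.21) than with its own number. With the replicate number as a block, 2320 negative and 870 positive differences were called, within 1.5 times the counts without it. The block ended both calls of the meiosis core and the negative call of the pollen coat, left 5 of 14 formins and 2 of 27 nucleation genes negative, and gave 19 negative and 1 positive regulators, 25 negative sporopollenin genes, 2 negative genes of tetrad release and 1 positive gene of the small RNA group. The named genes whose difference changed sign were not called with all libraries, and their lowest and highest values over the fits that leave out 1 library are given last. TraesCS2A03G1143500 (TaWRKY70) had -0.056 with all libraries, 0.46 with DESeq2, 0.13 under the strict thresholds, 0.0066 with the replicate block, and -0.96 (without ‘Mv 17-09’ treated replicate 3) to 0.52 (without ‘Ellvis’ treated replicate 3). TraesCS2B03G1168300 (Cdc20) had -0.062 with all libraries, and -0.18 (without ‘Ellvis’ control replicate 2) to 0.014 (without ‘Ellvis’ treated replicate 2). TraesCS2B03G1307800 (TaN2O) had -0.58 with all libraries, and -1.64 (without ‘Ellvis’ control replicate 1) to 0.47 (without ‘Ellvis’ control replicate 2). TraesCS3D03G0819100 (actin) had -0.25 with all libraries, and -0.64 (without ‘Mv 17-09’ treated replicate 1) to 0.044 (without ‘Ellvis’ control replicate 2). TraesCS5A03G0292900 (Fidgetin) had 0.075 with all libraries, -0.063 without the filter, and -0.055 (without ‘Ellvis’ treated replicate 2) to 0.15 (without ‘Ellvis’ treated replicate 1). TraesCS5A03G1210200 (TaPAD) had 0.22 with all libraries, and -0.11 (without ‘Mv 17-09’ control replicate 2) to 0.66 (without ‘Mv 17-09’ control replicate 3). TraesCS5D03G0309300 (Fidgetin) had 0.072 with all libraries, -0.047 without the filter, and -0.22 (without ‘Ellvis’ control replicate 3) to 0.24 (without ‘Mv 17-09’ treated replicate 2). TraesCS5D03G0353500 (DMC1) had 0.21 with all libraries, and -0.020 (without ‘Ellvis’ control replicate 3) to 0.32 (without ‘Mv 17-09’ treated replicate 1). TraesCS5D03G0996700 (Microspherule) had -0.094 with all libraries, 0.068 with limma, and -0.30 (without ‘Ellvis’ control replicate 2) to 0.089 (without ‘Ellvis’ control replicate 1). ‘Ellvis’ control replicate 1, with 1831675 counts, was the shallowest library, and how far depth limits the calls in low genes was not tested.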
